A study of Mus musculus with 39 samples.

Results

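The binding of Notch and of its DNA-binding partner RBPJ in radial glial cells (RGCs) of the mouse embryonic cortex was compared through 2 deposited peak lists. A Notch peak and an RBPJ peak were called shared when they overlapped by 1 bp or more, and all other peaks were Notch-only or RBPJ-only. On the 21 nuclear chromosomes the lists held 17799 peaks, of the 25453 peaks in the 4 lists of the series. They comprised 1628 shared and 2074 Notch-only peaks of Notch, and 1635 shared and 12462 RBPJ-only peaks of RBPJ. Overlapping peaks were also merged, which gave 16151 regions, of which 1615 were shared. A further 3 RBPJ peaks were mitochondrial and were not used.

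Notch receptors are cut after they meet a ligand on a neighbouring cell, and the freed intracellular domain enters the nucleus. It has no DNA-binding domain of its own and joins RBPJ, which recognises a short DNA word and, without Notch, can sit there with corepressors. In RGCs, the neural stem cells of the cortex, this pathway turns on the Hes and Hey repressors, which hold back neuronal differentiation. The head-to-head pair of RBPJ words in the promoter of Hes1 is a well-known place where a dimer of the Notch complex assembles.

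Binding was measured by Targeted DamID (TaDa), in which a chromatin protein is expressed as a fusion with bacterial Dam, an enzyme that adds a methyl group to the adenine of nearby GATC sites. Wild-type MF1 embryos were electroporated in utero at E13.5 and the cortex was taken at E14.5, 24 h later, and the Hes5 promoter (pHes5) restricted expression of the plasmids to RGCs. The Notch group held 4 samples, 2 with mouse NICD, the intracellular domain alone, and 2 with mouse NdECD, a membrane-tethered form without the extracellular domain, and the RBPJ group held 3 samples with human RBPJ1. The Dam-only group held 5 samples with unfused Dam, and the labels tie 4 of them to the Notch and RBPJ profiles. All 12 samples therefore carried plasmids with a Hes5 promoter fragment, expression was transient, and the fusions were added to cells that kept their own Notch and RBPJ.

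Both lists were called against the same Dam-only samples, so their overlap cannot be told apart from an effect of those controls on both lists. The authors kept a peak when it was present in every pairing of fusion and Dam-only samples, with 4 Notch samples of 2 designs and 3 RBPJ samples of 1 design. A Notch-only or RBPJ-only peak therefore lacks a call for the other protein, which is not a measurement of absent binding. The files hold positions and no height, fold or value of a single sample, so depth per sample is unknown, no replicate error can be given and no test between groups was possible. Intervals below are 95% intervals that cover counting error over peaks, genes or words only, and neighbouring peaks are not independent. Whether the cells were RGCs cannot be checked from binding alone. Of the 24 radial glia genes listed for this work, 22 were the nearest gene of a region, as were 22 of 24 cortical neuron genes, beside 7 of 18 endothelial, mural and microglial genes and 34.3% of all protein-coding genes.

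The words on which the comparison turned are shown first, read from the GRCm38.p6 sequence (mm10). RBPJ recognises TTCCCA, read here on both strands, and a paired word was defined as TGNGAA, 15 to 17 bases of any kind and TTCNCA, which puts 2 RBPJ-like words head to head. The paired words inside regions of Notch pathway and radial glia genes follow, each on the plus strand with the words in capitals. They are matches to a loose pattern, and the capitals of Vim, Tle3 and Sox2 hold no TTCCCA on either strand. Apart from the well-known pair at Hes1, whether the complex binds them was not tested.
Hes1, shared, chr16:30065260-30065287: TGGGAAagaaagtttgggaagtTTCACA
Vim, shared, chr2:13575916-13575944: TGTGAAggtgaaattggctaactTTCACA
Nrarp, shared, chr2:25177814-25177840: TGGGAAgaaacactctcctctTTCCCA
Gli3, shared, chr13:15618643-15618671: TGGGAAatgcttgcattcactacTTCCCA
Id4, Notch-only, chr13:47917008-47917034: TGGGAAgctctggaaaggcttTTCACA
Tle3, RBPJ-only, chr9:61333435-61333463: TGAGAActgtgggaacagtgacgTTCTCA
Sox2, RBPJ-only, chr3:34443055-34443082: TGTGAAgatccagtaacagaggTTCTCA
The Hes1 pair, with a spacer of 16 bases, lay 66 bp from the nearest annotated start site of the gene. The pairs of Vim and Nrarp lay 1.41 and 2.93 kb from a start site, and the pair of Gli3 was intragenic, 155 kb away. All 4 shared pairs were inside both a Notch peak and an RBPJ peak. Outside the shared regions the pairs lay far from the gene: 344 kb from Id4, 38.9 kb from Tle3 and 207 kb from Sox2.

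The longer word TTCCCACG, the core with the 2 bases that often follow it at strong RBPJ sites, was looked up within 5 kb of the start sites of Notch pathway genes after the first results had been seen. It occurred 8 times in shared regions, 9 times in RBPJ-only regions and 0 times in Notch-only regions. Only 8 pathway genes had a Notch-only region in that range, too little sequence for a count of 0 to set the groups apart. The occurrences shown are some of those of the genes described further on, each on the plus strand, with the word or its reverse complement CGTGGGAA in capitals.
Hes1, shared, chr16:30066366-30066395: ctcactccgcgTTCCCACGgtctgggtctt
Hes1, shared, chr16:30065783-30065812: atggcagatccCGTGGGAActcaggacctc
Nrarp, shared, chr2:25181673-25181702: gccccagagccTTCCCACGgccccgaccgc
Rbpj, RBPJ-only, chr5:53589312-53589341: gcttaggaaatTTCCCACGgcccgtgttgt
Lfng, RBPJ-only, chr5:140607220-140607249: tccgtatcccaCGTGGGAAggagagatctc
Heyl, RBPJ-only, chr4:123233673-123233702: cgcccggggccTTCCCACGgttcggtggcg
Notch4, RBPJ-only, chr17:34587037-34587066: aggccagaaccCGTGGGAAactaaaaggta
Of the words shown, those of Notch4, Hes1, Lfng and Heyl lay nearest to an annotated start site of any transcript, at 11, 43, 85 and 132 bp. For Notch4 and Hes1 that start site was inside the gene, downstream of its 5′ end, and for Notch4 it was near the 3′ end. Those of Rbpj and Nrarp lay 0.887 and 0.93 kb away. The words shown for Hes1 were inside both a Notch peak and an RBPJ peak, whereas that of Nrarp lay in the RBPJ peak of the shared region and outside its Notch peak.

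Shared peaks were close matches in position. Of the Notch peaks, 44.0% (42.4 to 45.6) were shared, and of the RBPJ peaks 11.6% (11.1 to 12.1). In 1582 of the 1615 shared regions 1 Notch peak met 1 RBPJ peak. The median overlap was 2110.5 bp (2021 to 2221), the smallest was 146 bp, and the midpoints of overlapping peaks lay a median of 395 bp apart (362 to 427). Peaks that just missed the rule were few. Of the Notch-only peaks 21, or 1.01% (0.663 to 1.54), lay within 1 kb of an RBPJ peak, and the median gap was 33004.5 bp (31118 to 35046). Of the RBPJ-only peaks 30, or 0.241%, lay within 1 kb of a Notch peak, with a median gap of 168440 bp (163134 to 173023).

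Shared peaks were wider than the peaks called for 1 protein. The median width was 2716 bp (2590 to 2806) for shared Notch peaks and 2163.5 bp (2103 to 2230) for Notch-only peaks. For RBPJ it was 2802 bp (2716 to 2899) for shared and 1983 bp (1955 to 2009) for RBPJ-only peaks. Peaks of 5 kb or more made up 11.7% (10.2 to 13.3) of the shared Notch peaks and 5.30% (4.42 to 6.35) of the Notch-only peaks, and 13.1% (11.5 to 14.8) against 4.53% (4.17 to 4.90) for RBPJ. The share of peaks found in the other list rose with width in each list, from 31.6% of Notch peaks under 1 kb to 63.3% of those of 5 kb or more, and from 5.24% to 27.5% for RBPJ. A wide peak has more room to meet another, so the rule itself bears on these widths and they are given as a description.

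**Figure D1:**
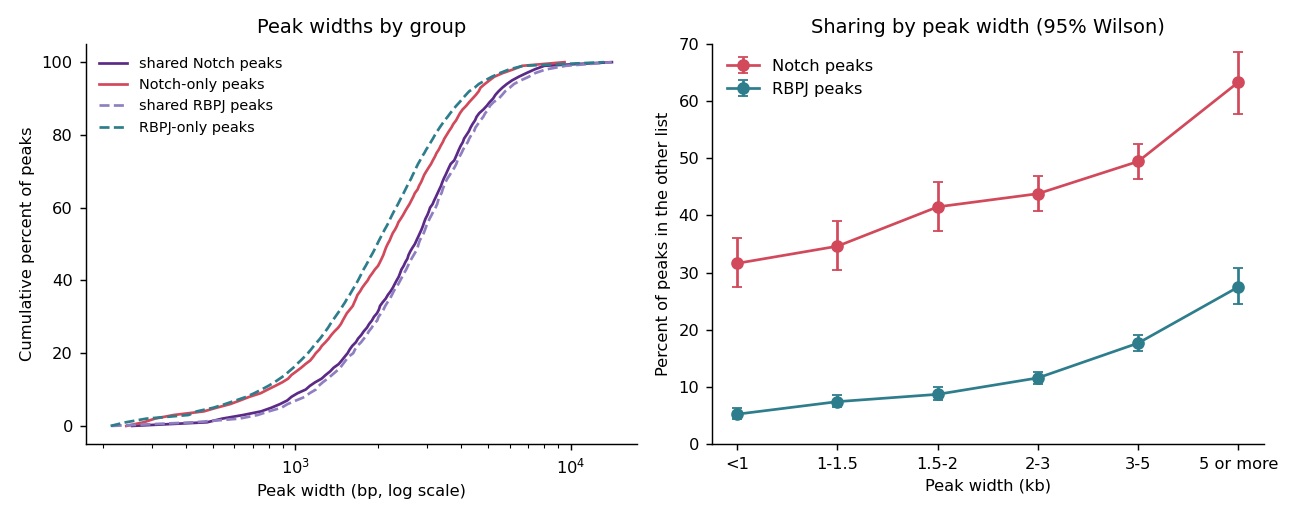
Left, cumulative percent of peaks against peak width (bp, log scale) for shared Notch, Notch-only, shared RBPJ and RBPJ-only peaks; the curves of the shared peaks lie to the right of the others, with medians of 2716 and 2802 bp against 2163.5 and 1983 bp. Right, percent of peaks found in the other list by width class in kb (points, with 95% Wilson intervals), which rose from 31.6% to 63.3% for Notch and from 5.24% to 27.5% for RBPJ.

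All groups lay nearer to protein-coding start sites than bases of the genome do, and most peaks were distal. Start sites were covered by 22.8% (20.8 to 24.9) of the shared Notch peaks and 18.2% (16.6 to 19.9) of the Notch-only peaks, a difference of 4.56 percentage points (1.95 to 7.20). Among peaks of 1500 to 3000 bp the difference was 0.51 points (-3.58 to 4.69), over 636 shared and 843 Notch-only peaks. At matched width no excess on start sites was detectable for the Notch list. For RBPJ the shares were 24.04% (22.0 to 26.2) and 16.7% (16.1 to 17.4), 7.33 points apart (5.21 to 9.56), and 2.98 points apart (-0.23 to 6.51) in the width band. In that band the shares of midpoints within 5 kb of a start site were 4.11 points apart (0.32 to 8.09) for RBPJ. For Notch they were 1.03 points apart (-3.79 to 5.89). The median distance from the nearer peak edge was 18625 bp (15409 to 22946) for shared Notch, 17086 bp (15219 to 19458) for Notch-only, 18718 bp (15266 to 23240) for shared RBPJ and 21952 bp (20797 to 23217) for RBPJ-only peaks. These intervals overlap among the Notch groups and among the RBPJ groups.

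By their midpoints, 34.0% of shared Notch, 31.8% of Notch-only and 27.997% of RBPJ-only peaks lay within 5 kb of a start site, a range that holds 13.46% of nuclear bases. Midpoints in introns made up 47.8% (45.4 to 50.2) of shared Notch, 49.95% (47.8 to 52.1) of Notch-only and 45.9% (45.1 to 46.8) of RBPJ-only peaks, and introns hold 34.6% of nuclear bases. Outside gene bodies and the 5 kb upstream of start sites lay 35.7%, 35.2% and 40.3% in the same order, against 58.9% of bases. The RBPJ-only peaks were thus the most intergenic of the groups, and the shared and Notch-only peaks did not differ beyond their intervals in these features.

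**Figure D2:**
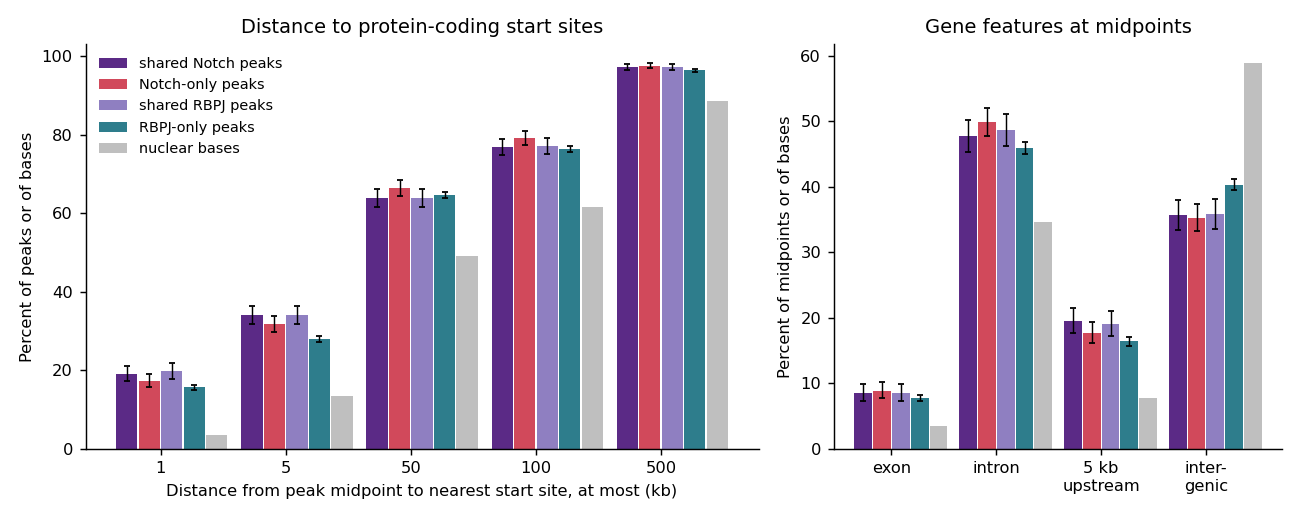
Left, percent of peaks whose midpoint lies within 1, 5, 50, 100 or 500 kb of the nearest protein-coding start site, with the same share of nuclear bases in grey; right, percent of midpoints in exons, introns, the 5 kb upstream of start sites (which can lie inside another gene) and intergenic sequence. Bars carry 95% Wilson intervals, and every group exceeds the grey bar except in intergenic sequence, where all lie under 58.9%.

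The RBPJ word set the Notch-only peaks apart from the other groups. TTCCCA occurred 1.13 times per kb (1.10 to 1.16) in shared Notch peaks, 0.999 times (0.972 to 1.03) in Notch-only peaks and 1.21 times (1.19 to 1.22) in RBPJ-only peaks, beside 0.934 times per kb over the nuclear genome. As ratios to the genome these were 1.21 (1.18 to 1.25), 1.07 (1.04 to 1.10) and 1.29 (1.28 to 1.31). The 6 letters of TTCCCA can be arranged in 60 ways, which gives a scale for base composition. TTCCCA had the highest ratio of the 60 in shared Notch, shared RBPJ and RBPJ-only peaks, and ranked 10 in Notch-only peaks.

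The difference grew with the length of the word. TTCCCACG reached 2.51 times its density in the genome (2.08 to 3.01) in shared Notch peaks, 2.77 times (2.32 to 3.27) in shared RBPJ peaks and 3.45 times (3.23 to 3.68) in RBPJ-only peaks. In Notch-only peaks it stood at 1.18 times (0.892 to 1.53), from 57 occurrences. The CG dinucleotide in this word was itself enriched in all groups, at 18.2, 16.54 and 16.3 per kb in shared Notch, Notch-only and RBPJ-only peaks against 8.26 in the genome. Among the 60 arrangements followed by CG, the word ranked 1 in RBPJ-only, 3 in shared RBPJ, 7 in shared Notch and 53 in Notch-only peaks. The median ratios over the arrangements were 1.81, 1.91, 1.91 and 1.74 in the same order, so words of this kind were enriched in every group. In the Notch-only peaks the word was therefore less enriched than most words of the same letters.

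**Figure D3:**
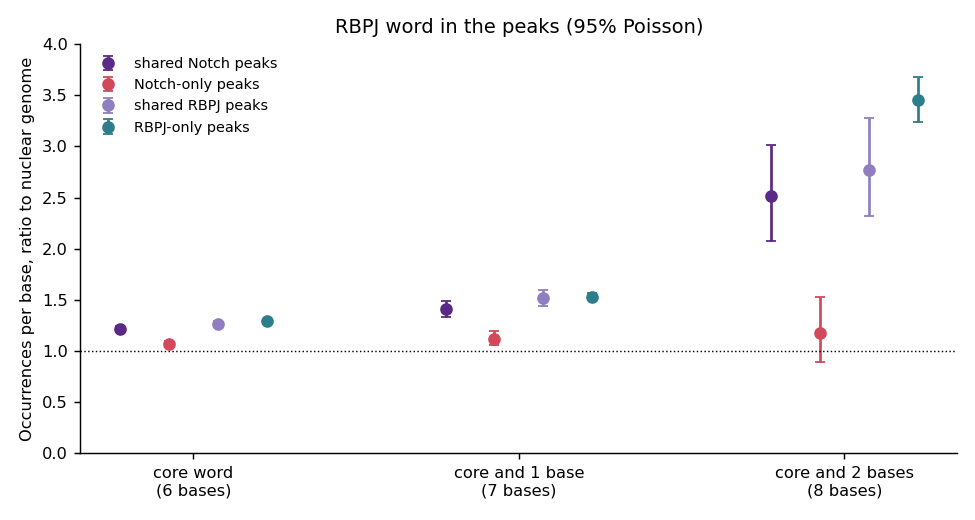
Occurrences per base of the core RBPJ word (6 bases) and of the core with 1 or 2 further bases (7 and 8 bases), as a ratio to the nuclear genome, in shared Notch, Notch-only, shared RBPJ and RBPJ-only peaks, with exact 95% Poisson intervals; the dotted line marks the genome. Notch-only peaks stay near the line at 1.07, 1.12 and 1.18, and RBPJ-only peaks reach 1.29, 1.53 and 3.45.

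Paired words were rare in every group. They numbered 53 in 52 shared regions, or 8.70 per Mb, 25 in Notch-only regions, or 4.97 per Mb, and 221 in RBPJ-only regions, or 7.88 per Mb, beside 5.73 per Mb in the genome. The ratios to the genome were 1.52 (1.14 to 1.99), 0.867 (0.561 to 1.28) and 1.38 (1.20 to 1.57). Of the shared regions 3.22% (2.46 to 4.20) held a pair, so most shared regions did not have the arrangement seen at Hes1.

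In promoters, too, the word was least frequent in the Notch-only group. RefSeq promoters of 300 bases, from 250 before to 50 after a start, overlapped shared regions in 483 cases, Notch-only regions in 417 and RBPJ-only regions in 2308, of 32817 in all. TTCCCA on either strand was in 27.95% (24.1 to 32.1), 18.5% (15.03 to 22.5) and 28.2% (26.5 to 30.1) of them, and in 25.6% of all promoters. TTCCCACG was in 8, 0 and 38 of them, or 1.66%, 0% (up to 0.913%) and 1.65%, and in 0.734% of all. A match is a description of the sequence and does not show a bound site.

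Base composition was close among the groups, and the GATC and homeodomain words were not. GC content was 46.4%, 46.2% and 45.9% in shared Notch, Notch-only and RBPJ-only peaks, against 41.7% in the genome. GATC, the only site that Dam methylates, occurred 3.44, 3.62 and 3.12 times per kb, against 2.52 in the genome, and 0.430%, 0.916% and 1.44% of the peaks held none. The homeodomain word TAATTA was below the genome in all of them, at ratios of 0.936 (0.894 to 0.980), 0.816 (0.777 to 0.856) and 0.871 (0.854 to 0.889). It was thus lower in Notch-only than in shared Notch peaks by an amount similar to that of TTCCCA. The homeodomain word holds none of the bases counted in GC content, which was higher in every group than in the genome. No scale for base composition was made for this word, so whether homeodomain words were depleted or enriched beyond composition was not tested. The paper reports a significant enrichment of homeobox factor sites, those of LHX2 above all, at Notch and RBPJ peaks.

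Every region was given to the protein-coding gene whose annotated start site lay closest to it. Shared regions named 1270 genes, 5.79% of the 21938 protein-coding genes, Notch-only regions 1701 (7.75%) and RBPJ-only regions 6537 (29.8%). These percentages are the background for the gene lists that follow. A start site lay inside a shared region for 1.97% of genes, inside a Notch-only region for 1.89% and inside an RBPJ-only region for 9.95%. Genes with a wide stretch of genome around them collect more regions, so for most lists the number of regions per Mb of territory, the sequence nearer to its start sites than to any other, is given too.

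The 82 genes of the Notch pathway carried regions of every group more often than all genes did. A shared region had 16 of them (19.5%, 12.4 to 29.4), a Notch-only region 18 (22.0%, 14.4 to 32.1) and an RBPJ-only region 43 (52.4%, 41.8 to 62.9). The 3 shares stand against 5.79%, 7.75% and 29.8% of all genes. Between the 6 lists by role, the intervals for a shared region overlap. They run from 0% (up to 21.5%) for receptor processing to 36.4% (15.2 to 64.6) for the Hes and Hey repressors. Per Mb of territory, shared regions numbered 6.58 for the Hes and Hey repressors, 5.71 for the receptors, 3.03 for the modulators, 2.90 for the nuclear complex, 0.512 for the ligands and 0 for receptor processing, against 0.602 for all genes. These densities have no intervals and rest on 7, 2, 5, 15, 1 and 0 regions in the same order. Both receptor regions were at Notch1, and 2 of the 7 in the Hes and Hey list were at Bhlhe40.

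Among the receptors, Notch1 had 5 regions, of which 2 were shared, 1 was Notch-only and 2 were RBPJ-only. Its larger shared region, chr2:26495635-26509749, was the third widest of all at 14.1 kb and lay over a start site inside the gene. There the RBPJ peak ran from 6.91 to 21.03 kb downstream of the 5′ end and the Notch peak from 15.23 to 19.12 kb, inside the RBPJ peak. The start site lay in the RBPJ peak and outside the Notch peak, so it was called for RBPJ only. The smaller shared region, chr2:26475748-26480510, was intragenic. The Notch plasmids carried the part of Notch1 that encodes the intracellular domain, at the 3′ end of the coding sequence. Of all coding bases of Notch1, 17.9% lay in Notch peaks and 19.95% in RBPJ peaks. Of the last 2000, which do not span the whole of the intracellular domain, 0 lay in a Notch peak and 0 in an RBPJ peak, and the part of plasmid sequence in the calls was not tested. Notch2 had 4 regions and Notch4 had 1, all RBPJ-only, and Notch3 had none.

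Of 13 genes for ligands and the proteins that help them, 1 had a shared region, 2 a Notch-only and 6 an RBPJ-only region. Dll1, the main ligand on newly formed neurons, had 1 region of each kind: a shared region 2.64 kb from a start site, a Notch-only region of 696 bp and an RBPJ-only region of 3051 bp, both over start sites. The RBPJ-only region covered the 5′ end of Dll1, and the Notch-only region covered a start site inside the gene. Jag1, another ligand, had 2 regions, both RBPJ-only, of which chr2:137112738-137116925 covered its 5′ end. Dlk1, a non-canonical ligand, had 5 and Dner 2, all RBPJ-only. Neurl1a, whose relatives help ligands to be taken up, had 1 Notch-only region 0.32 kb from a start site. The counts of shared and RBPJ-only calls among ligand genes stand in much the same proportion as those of all genes.

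Receptor processing was the Notch list with no shared region, 0 of 14 genes (up to 21.5%), an interval that includes the 5.79% of all genes. RBPJ-only regions were assigned to 6 of the 14 and lay over start sites of 4, Lfng, Poglut1, Aph1b and Adam17. Lfng, the Fringe enzyme that adds sugar to Notch and alters its response to ligands, lay under an RBPJ-only region of 7.21 kb, chr5:140605429-140612633. Poglut1 also adds sugar to Notch, Aph1b is a subunit of the γ-secretase that frees the intracellular domain, and Adam17 is a protease that can cut the receptor. Pofut1, the enzyme that adds fucose to Notch, was alone in having a Notch-only region over a start site. Psen2, Ncstn, Aph1a and Psenen, further subunits of γ-secretase, had no region.

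Of the 27 genes of the nuclear complex and its corepressors, 6 had a shared, 9 a Notch-only and 16 an RBPJ-only region. Rbpj itself had 3 regions, all RBPJ-only, and chr5:53588780-53593422 lay over a start site and held the word printed above. Spen, which tethers corepressors to RBPJ, had 6 and the coactivator gene Maml2 had 3, all RBPJ-only. The Groucho-type corepressors carried many regions, with 4 shared, 1 Notch-only and 15 RBPJ-only at Tle3 and 4, 1 and 3 at Tle1. L3mbtl3, an RBPJ partner that recruits a histone demethylase, had a single region, shared, over a start site, chr10:26372779-26377929. Hdac2, with 2 Notch-only regions, and Aes, with 1 over a start site, had no RBPJ peak. Maml3, a coactivator of the Mastermind family, had 3 shared, 2 Notch-only and 5 RBPJ-only regions and Tle4 1, 3 and 9, and the acetyltransferase gene Crebbp had a Notch-only region over a start site and 2 RBPJ-only regions.

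Among the 14 modulators, 4 had a shared region, and in 3 of them it lay over a start site: Nrarp, Numb and Dtx3. Nrarp, a target that limits Notch signalling by binding the complex, had a shared region of 10.8 kb that covered the gene, and 2 RBPJ-only regions 8.69 and 16.1 kb upstream. In it the Notch peak lay from -4.41 to -0.10 kb of the 5′ end and the RBPJ peak from -4.37 to 6.41 kb, so the gene body was called for RBPJ only. Numb, an inhibitor of Notch, had a shared region over a start site and a Notch-only region 16.8 kb away. The single region of Dtx3, a ubiquitin ligase of the Deltex family, was shared. Fbxw7, which marks the intracellular domain for degradation, had 2 Notch-only and 3 RBPJ-only regions. Nepro had 2 shared, 3 Notch-only and 1 RBPJ-only region, none of them over a start site.

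The Hes and Hey repressors are the classical targets, and their list of 11 also held Bhlhe40 and Bhlhe41. Of the 11, 4 had a shared region, Bhlhe40 among them, 2 a Notch-only and 6 an RBPJ-only region. At Hes1 the Notch peak ran from -1.97 to 2.99 kb of the 5′ end and the RBPJ peak from -1.86 to 5.66 kb, which made a shared region of 7.63 kb over the gene. Hes1 also had 10 RBPJ-only regions, between 2.94 and 219 kb from the start site, and a second shared region 208 kb away, but no Notch-only region. At Hes5 the start site lay in an RBPJ-only region, from -3.83 to 0.23 kb, while a shared region lay 6.64 kb and a Notch-only region 12.7 kb upstream. The Hes5 promoter fragment is also on the Dam plasmids of all RGC samples, Dam-only included, and its part in the calls at that start site was not tested. Hey1 had an RBPJ-only region over a start site and shared regions 17.54 and 49.5 kb away. Heyl had 2 regions and Hes7 had 1, all RBPJ-only, and Bhlhe40 had a shared region over a start site. Hes2, Hes3, Hes6, Hey2 and Bhlhe41 had none.

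**Figure D4:**
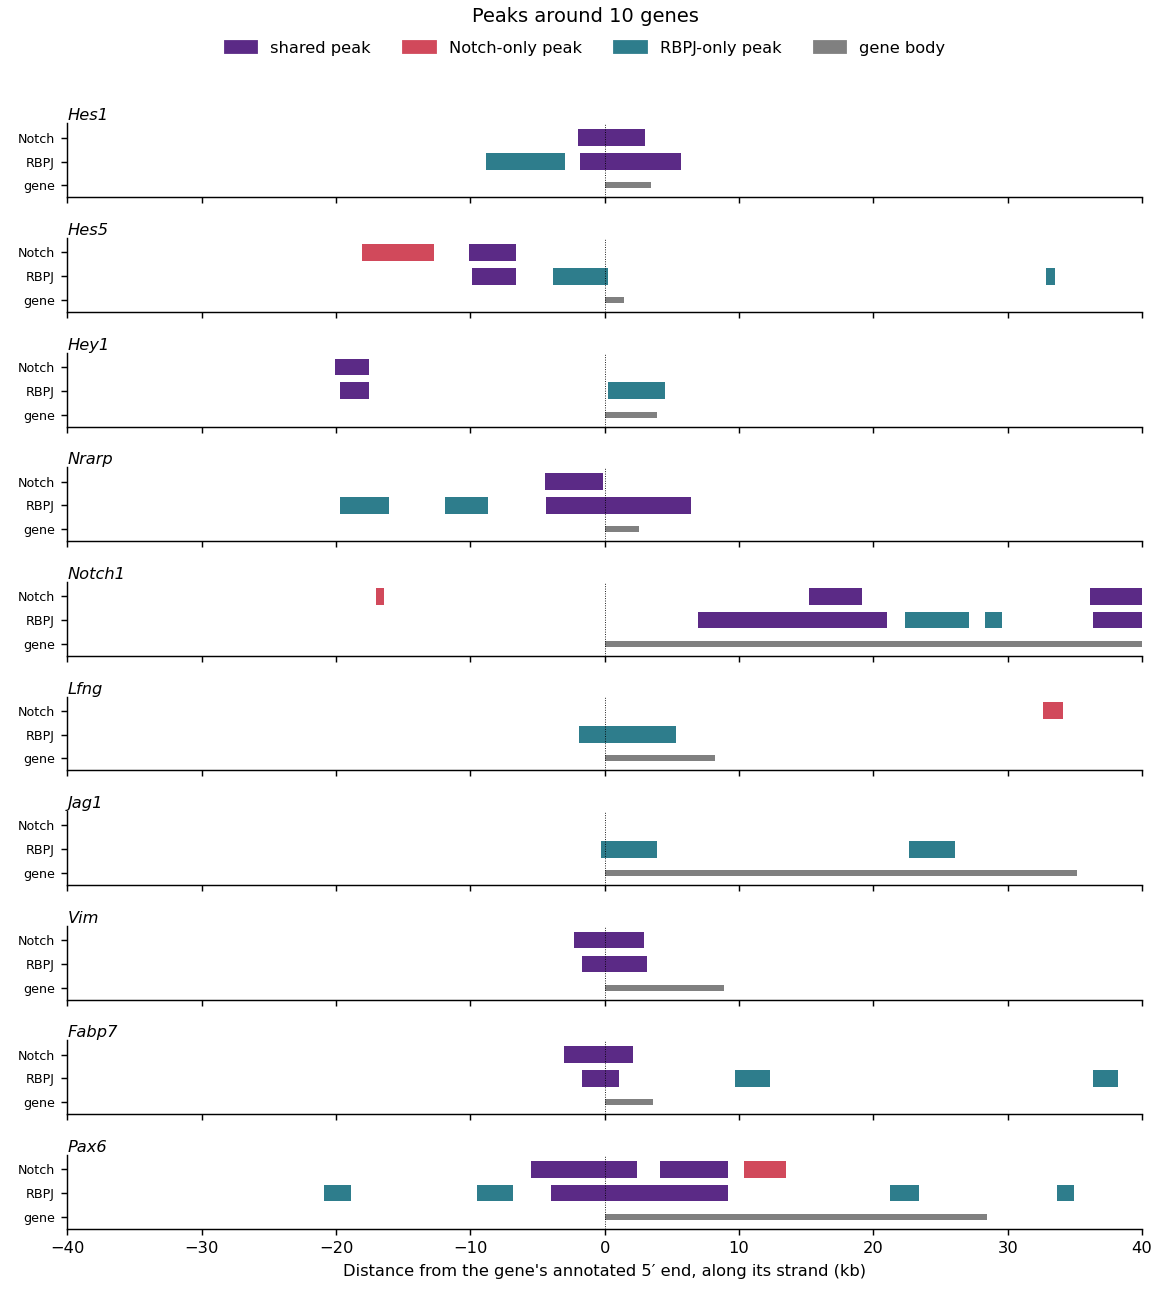
Peaks of the Notch and RBPJ lists within 40 kb of the annotated 5′ end of 10 genes (dotted line, 0 kb), along the strand of each gene, with shared peaks in purple, Notch-only peaks in red, RBPJ-only peaks in teal and the gene body in grey; bars are peak extents, not heights. At Hes1, Nrarp, Vim, Fabp7 and Pax6 a shared peak lies over or beside the 5′ end, at Hes5, Lfng and Jag1 an RBPJ-only peak does, and at Hes5 the nearest Notch peak ends 6.64 kb upstream.

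Radial glia genes had the highest share of genes with a shared region among the lists examined, and Hes and Hey, receptor and Hedgehog genes had more shared regions per Mb. The receptor value rests on 2 regions, both at Notch1. Of the 24, 15 (62.5%, 42.7 to 78.8) had a shared, 11 a Notch-only and 21 an RBPJ-only region, and 11 had a start site in a shared region, against 1.97% of all genes. Their median territory was 279 kb against 45.1 kb for all genes. Per Mb of territory they had 3.33 shared, 2.29 Notch-only and 13.2 RBPJ-only regions, against 0.602, 0.774 and 4.64 for all genes, so the density was also above that of all genes per Mb. Hes1 and Hes5 are in this list and in the Notch pathway list.

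Markers of the RGC cytoskeleton and metabolism ranged from a single region to many. Fabp7, a fatty acid-binding protein of RGCs, had a single region, shared, of 5.18 kb over its start site. Vim, an intermediate filament of RGCs, had a shared region of 5.47 kb over its start site and an RBPJ-only region 44.8 kb away. Slc1a3, the glutamate transporter GLAST, had 3 shared regions, 1 of them over a start site, beside 1 Notch-only and 5 RBPJ-only. Nes, another intermediate filament, had 2 regions, both RBPJ-only, of which chr3:87970297-87971358 covered its start site. Ptn, a secreted growth factor, had 6 shared and 7 RBPJ-only regions and no Notch-only region.

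The transcription factors of RGCs carried regions of several kinds. Pax6 lay under the widest of all shared regions, chr2:105663397-105678083, of 14.7 kb, in which 1 RBPJ peak spanned 2 Notch peaks. The second widest, chr4:154520599-154534720, lay in Prdm16, which had 5 shared, 2 Notch-only and 7 RBPJ-only regions. Gli3, a transducer of Hedgehog signals, had 4, 5 and 11, with its start site in a shared region. Emx2 had 2 shared, 1 Notch-only and 3 RBPJ-only regions, and the shared region of 11.3 kb over its start site also held IPC Notch and IPC RBPJ peaks. At the other end Lhx2 had 5 regions, all RBPJ-only and all overlapping the gene. Sox2 had 2 shared, 2 Notch-only and 18 RBPJ-only regions: its start site lay in an RBPJ-only region and the nearest shared region 71.2 kb away. Id4 had 3 Notch-only and 16 RBPJ-only regions and no shared one. Sox9, with 1 shared, 3 Notch-only and 12 RBPJ-only regions, had none over a start site. Nr2f1 had 1 shared region over a start site and 13 RBPJ-only regions. Nr2e1 had 1 RBPJ-only region over a start site and 1 shared region, 0.598 kb from a start site and over none. Hopx had 2 Notch-only and 3 RBPJ-only regions, Mki67 had 1 of each, and Ednrb and Aldoc had 1 RBPJ-only region each. Emx1 and Prom1 had none.

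**Figure D5:**
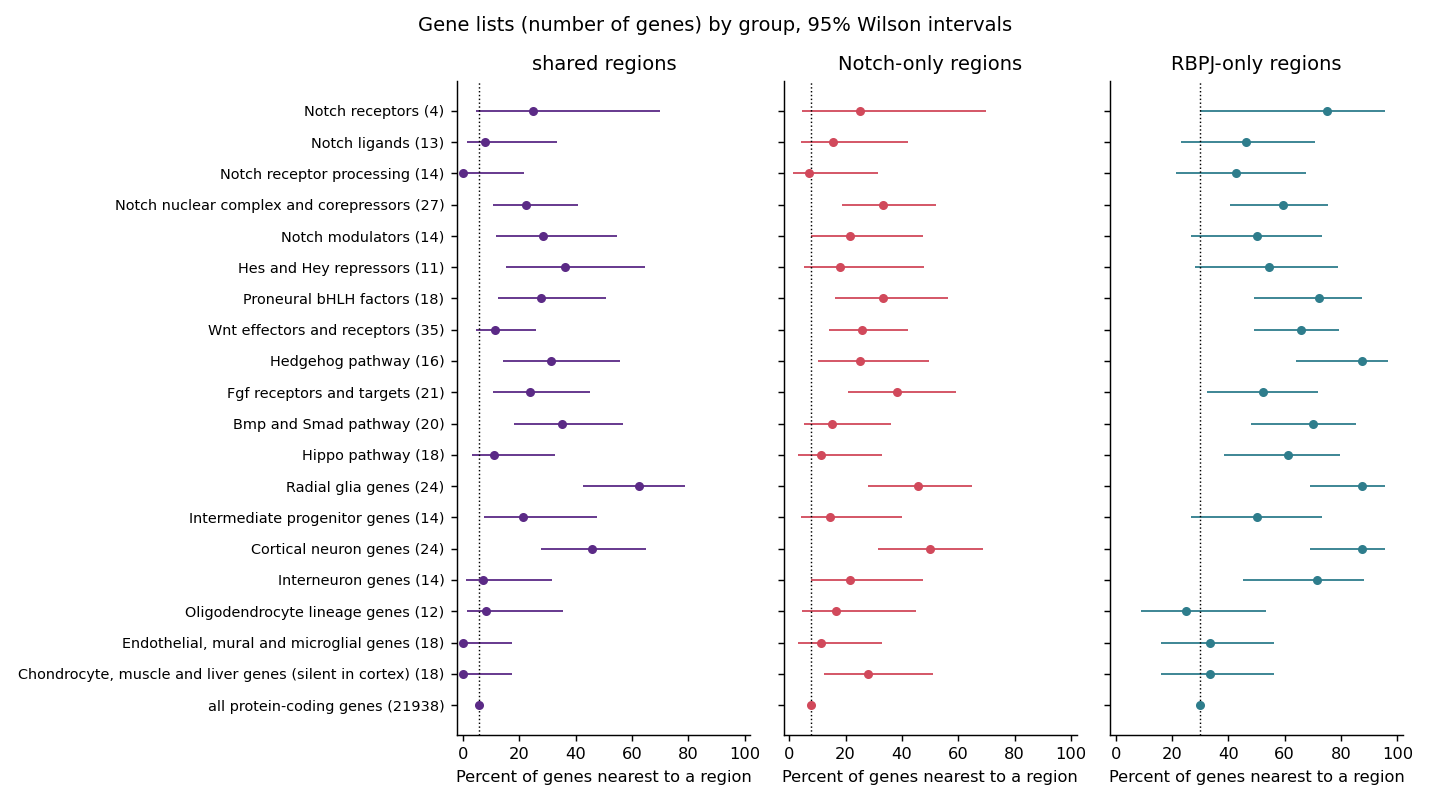
Percent of the genes of each list that are the nearest gene of at least 1 shared (left), Notch-only (middle) or RBPJ-only (right) region, with 95% Wilson intervals and the number of genes in parentheses; the dotted line is the share of all protein-coding genes (5.79%, 7.75% and 29.8%). Radial glia genes are highest for shared regions at 62.5%, followed by cortical neuron genes at 45.8%. The endothelial and silent-tissue lists are at 0%, with intervals that include the share of all genes.

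Lists for other cell types followed in part. Of 24 cortical neuron genes 11 (45.8%, 27.9 to 64.9) had a shared region and 12 a Notch-only region, with a median territory of 365 kb and 1.39 shared regions per Mb. Fezf2, Foxp2, Nrp1 and Unc5d had a start site in a shared region. Foxp1 had 16 RBPJ-only regions beside 1 shared and 1 Notch-only. Of 14 intermediate progenitor genes 3 had a shared region: Neurog2, 6.42 kb from its start, Gadd45g, 70.3 kb away, and the antiproliferative gene Btg2, over its start site. Eomes, the defining factor of intermediate progenitors, had 3 regions, all RBPJ-only. Interneuron genes had a shared region in 1 of 14 and oligodendrocyte genes in 1 of 12, Olig2. Endothelial, mural and microglial genes had none in 18 (up to 17.6%), and neither had 18 chondrocyte, muscle and liver genes. That interval includes the 5.79% of all genes, so these counts of 0 do not set the lists apart from all genes. RBPJ-only regions were assigned to 6 genes of each list (33.3%), near the 29.8% of all genes. Notch-only regions were assigned to 2 genes of the endothelial list and to 5 of the chondrocyte, muscle and liver list (27.8%, 12.5 to 50.9), against 7.75% of all genes. The latter interval overlaps that of the Notch pathway genes for Notch-only regions, 22.0% (14.4 to 32.1). Of the 5, Comp and Col2a1, both of cartilage, had theirs nearest, 0.713 and 7.24 kb from a start site.

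Other signalling pathways are described by group, and their intervals for the share of genes with a shared region overlap one another. Shared regions were assigned to 7 of 20 Bmp and Smad genes (35.0%, 18.1 to 56.7), 5 of 16 Hedgehog genes (31.2%, 14.2 to 55.6), 5 of 18 proneural and Id genes, 5 of 21 Fgf genes, 4 of 35 Wnt genes and 2 of 18 Hippo genes. Per Mb of territory the order was another, with 4.04 shared regions for Hedgehog, 2.81 for proneural and Id, 2.101 for Hippo, 1.95 for Bmp and Smad and 1.65 for Fgf genes. RBPJ-only regions were assigned to 14, 14, 13, 11, 23 and 11 genes of the Bmp, Hedgehog, proneural, Fgf, Wnt and Hippo lists, and Notch-only regions to 3, 4, 6, 8, 9 and 2. The Wnt list had 0.909 shared and 11.6 RBPJ-only regions per Mb of territory, against 0.602 and 4.64 for all genes. Its share of genes with a shared region was 11.4%, against 5.79% of all genes. Tcf7l2, a transcription factor of the pathway, had 2 Notch-only and 12 RBPJ-only regions, and the receptor gene Fzd8 had 9 RBPJ-only regions, neither with a shared one. Lef1, Sfrp1 and Fzd2 had shared regions over start sites.

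In the Hedgehog list, Gas1, a co-receptor, had 5 shared and 7 RBPJ-only regions and Boc, another, had 3 shared, 2 Notch-only and 4 RBPJ-only. Gli2 had a shared region over a start site, and Ptch1, the receptor and a target of the pathway, had 5 RBPJ-only regions and no Notch peak. Among the Bmp genes, Smad7, an inhibitor of the pathway, and the receptor gene Acvr1 had start sites in shared regions, and Smad2 had 3 shared regions and no other. Among the Fgf genes, Fgfr2 had start sites in regions of all 3 groups, and Spry1 and Spry2, feedback inhibitors of the pathway, had Notch-only regions alone. Tead1 of the Hippo list had 2 shared, 4 Notch-only and 3 RBPJ-only regions. Of the helix-loop-helix genes, Id3, an inhibitor of proneural factors, had a single region, shared, over its start site, whereas Id1 had 3 regions, all RBPJ-only.

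The genes with the most regions in each group all had territories of 302 kb or more, against a median of 45.1 kb. Zfp608 and Msi2, which encodes an RNA-binding protein of neural stem cells, had 10 shared regions each, followed by Pou3f3 and Epha4 with 8, Ptn and Nrg1 with 6, and Prdm16, Nfib and Meis1 among those with 5. Notch-only regions were most frequent at Celf2 with 8, Mpped2 and Adgrl2 with 6, and Tox3, Slc35f1, Epha4, Sox6, Gli3, Pou3f3 and Nos1ap with 5. Auts2 led the RBPJ-only regions with 33, followed by Epha4 with 24, Zfp608 and Tmem182 with 22, Sox6 with 21, Sox2 and Adgrl2 with 18, and Tenm4, Magi1 and Dab1 with 17. Epha4, a guidance receptor with a territory of 1391 kb, was thus among the first 10 of every group.

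Notch-only regions without any RBPJ peak at the gene were thinly spread. They were the sole kind at 572 genes, with at most 3 regions, at Nek6, and 2 each at Atp11a, Lasp1, Tmem212, Ppp1cc, Trim71, Lnpep, Spry2, Stam2 and Cadm4. Genes with RBPJ-only regions alone numbered 4954, led by the guidance receptor gene Nrp2 with 12 and by Bcl2l11 and Cobl with 10, then Fzd8, Ttc28, Sel1l and Cdc73 among those with 9 and Casz1 and Trio with 8. The Notch list is the smaller, so these counts cannot be set against each other.

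The widest regions also differed by group. After Pax6, Prdm16 and Notch1, the widest shared regions lay over a start site of Zeb2 (13.8 kb) and 174 kb from Tfap2c (13.4 kb). The widest Notch-only regions were shorter, at 9.50 kb near Arntl, 9.49 kb near Egln3, 9.22 kb over Ryr1, 8.96 kb over Prrx1 and 8.59 kb over Ppp6c. Of the 5 widest RBPJ-only regions, 2 lay in Prdm16 (13.2 and 12.2 kb), 2 near Cdh4 (12.4 and 11.5 kb) and 1 over the start of Sp8 (12.7 kb), a patterning factor of the cortex. Prdm16, which maintains RGCs, was therefore in the widest group of both shared and RBPJ-only regions.

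Shared peaks were called again in intermediate progenitor cells (IPCs), the daughter cells of RGCs, more often than the others. IPCs were profiled under another promoter, Tα1, with the same RBPJ fusion and against 4 Dam-only samples of their own. Their 4 Notch samples all held NICD, whereas the RGC Notch group held 2 samples with NICD and 2 with NdECD. The part of these differences in the shares below was not tested. An IPC Notch peak overlapped 22.6% (20.6 to 24.7) of shared Notch peaks and 5.54% (4.64 to 6.61) of Notch-only peaks, and an IPC RBPJ peak 19.8% (17.9 to 21.8) and 5.01% (4.16 to 6.04). Of the RBPJ peaks, an IPC RBPJ peak overlapped 20.3% (18.4 to 22.3) of shared and 8.79% (8.31 to 9.30) of RBPJ-only peaks, and an IPC Notch peak 23.1% (21.1 to 25.2) and 6.03% (5.62 to 6.46). Calls in at least 1 IPC list covered 34.2% of shared Notch peaks, 9.74% of Notch-only peaks and 13.1% of RBPJ-only peaks. Shared peaks are wider, as given above, and the part of width in these shares was not tested. The region over Hes1 held peaks of both IPC lists, as did those over Nrarp, Fabp7 and Emx2, while the region over Vim held none.

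The authors had also sorted consensus regions of all 4 lists into 8 clusters by k-means, from the same samples, so the clusters are a description and not separate evidence. Notch-only regions fell mainly into cluster 1, with 63.1% (61.0 to 65.2) of them, against 14.7% of shared and 4.86% of RBPJ-only regions. RBPJ-only regions fell into clusters 5 (35.0%) and 8 (23.9%), and cluster 8 took 0.619% of shared regions. Shared regions were spread over clusters 4 (29.7%), 2 (17.52%), 6 (15.7%), 1 (14.7%) and 5 (12.6%).

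The X chromosome had few peaks of either protein. It carried 37 Notch peaks, or 0.216 per Mb against 1.49 on the autosomes, and 317 RBPJ peaks, or 1.85 per Mb against 5.59. Of these, 17 Notch peaks were shared, 45.9% (31.0 to 61.6), close to 44.0% on the autosomes, and of the RBPJ peaks 5.36% (3.37 to 8.42) were shared, below 11.7% (11.2 to 12.3).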

How the data were processed

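Per the labels and the study's methods, reads were mapped to mm10, broad peaks were called with MACS2 for each fusion and Dam-only pair, filtered by FDR, and kept when present in all pairs. The deposited lists hold positions in bp, 1 pooled list per cell type and protein. Their other columns, a constant score included, were not used, and there are 0 columns of single samples. Depth is unknown.

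Peaks were overlapped from 1 bp, and start sites came from GENCODE vM21 on GRCm38. Distances run from the nearer peak edge, and genes with equally near start sites share a region. Words were counted on both strands in GRCm38.p6, and positions are counted from 1. Shares have Wilson, differences Newcombe, medians order-statistic and word counts Poisson 95% intervals. No test was run. The tools were matplotlib 3.10.9, scipy 1.17.1, pandas 2.3.3 and numpy 2.4.6 under Python 3.11.15, and the overlap and interval code was tested on simulated data.

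The members and the 19 gene lists (320 genes, all matched to the annotation) were chosen with earlier results of these data known. Named genes were the members of the Notch and radial glia lists, the first 10 per group by number of regions, the first 10 with regions of 1 protein alone, the 5 widest regions per group and, from each other list, members among the 5 with the most regions. Further members of those lists were named after their values were seen, as were the TTCCCACG sequences. Some genes and sequences that these rules name are not reported here.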

Additional observations from a re-analysis of the deposited data

How the results depend on the processing

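Of 90 alternatives to 31 results, 60 stayed within the interval of the value reported, or within 1.5 times for counts. Requiring at least 50% of both peaks lowered the shared share to 32.7% of Notch and 8.60% of RBPJ peaks. With all annotated genes, median distances fell to 6240.5 bp (shared Notch), 8169.5 bp (Notch-only), 6243 bp (shared RBPJ) and 9087.5 bp (RBPJ-only), which reversed the order of shared Notch and Notch-only medians, and the shares on a start site became 27.3%, 21.7%, 29.1% and 20.2%. With peaks of at least 1000 bp the RBPJ-only median was 20593.5 bp, and the shares on a start site were 20.4% (Notch-only) and 19.1% (RBPJ-only). In the width band of 1500 to 3000 bp, added after seeing the data, they were 20.4% (shared Notch), 21.1% (shared RBPJ) and 18.1% (RBPJ-only). On or within 5 kb of start sites, 10 Notch pathway genes had a shared and 8 a Notch-only region, and 3 radial glia genes a Notch-only and 13 an RBPJ-only region. The TTCCCA ratio in the central 500 bp was 1.03 in Notch-only and 1.34 in RBPJ-only peaks. With TTCCCAC it was 1.41, 1.12, 1.52 and 1.53 in shared Notch, Notch-only, shared RBPJ and RBPJ-only peaks, and with TTCCCACG 2.51, 1.18, 2.77 and 3.45. The cause of these moves was not tested beyond what each setting changes. No alternative changed the order of the word ratios. Assigning 1 gene per region and ranking the arrangements of TTCCCA were also added after seeing the data.

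No paired analysis was possible because the lists hold no value of a single sample. For the same reason no replicate was left out, and no stricter threshold was run, as the scores are constant.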
